A study of Homo sapiens with 24 samples.

Results

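The genes described here are 10 components of transforming growth factor beta (TGF-beta) signalling, namely the ligands *TGFB1*, *TGFB2* and *TGFB3*, the activin subunit gene *INHBA*, the receptors *TGFBR1* and *TGFBR2*, the signal transducer *SMAD3*, the inhibitors *SMAD7* and *SKIL*, and the TGF-beta-induced matrix gene *TGFBI*. They were chosen by symbol, with earlier results of these data known, and matched to Entrez identifiers. All 10 were found among the 25702 identifiers of the RNA-seq count files. Of these, 9 passed the filter on low counts, and *TGFB3* did not. The samples were 24 RNA-seq libraries of IMR90 cells, a line of human lung fibroblasts, at passage 23 to 28. All cells in all groups carried ER:HRAS(G12V), an oncogenic RAS fused to an oestrogen receptor domain that is switched on by 4-hydroxytamoxifen (4OHT), and all had been infected with retrovirus. There were 4 groups of 6 biological replicates each. Growing cells carried the MSCV vector and received no agent, and the shHMGA1 group carried the MSCV miR30 shHMGA1 hairpin and received no agent. The RIS group (RAS-induced senescence) carried the MSCV vector and received 4OHT for 6 days, and the RIS+shHMGA1 group carried the hairpin and received 4OHT for 6 days. The knockdown rests on 1 hairpin, and no group received 4OHT without ER:HRAS(G12V), so that activated RAS and 4OHT itself cannot be told apart.

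TGF-beta ligands are secreted in a latent form, held in the matrix by latent TGF-beta binding proteins, and released by integrins, proteases and thrombospondin. Active ligand binds the type II receptor *TGFBR2*, which phosphorylates the type I receptor *TGFBR1*, and *TGFBR1* phosphorylates SMAD2 and SMAD3, which move to the nucleus with *SMAD4*. In fibroblasts the pathway is known for driving collagen, elastin and contractile genes, and activins, dimers of INHBA-encoded subunits, signal through related receptors to the same SMADs. The counts measure transcripts and say nothing of secreted, active or bound ligand, nor of SMAD phosphorylation. In bulk RNA, fewer cells that express a gene and less RNA per cell cannot be told apart.

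In the GRCh37 assembly with the GENCODE annotation, the ligand genes lie on 3 different chromosomes. *TGFB1* spans chr19:41807492-41859827 on the minus strand, *TGFB2* chr1:218518678-218617961 on the plus strand and *TGFB3* chr14:76424440-76449354 on the minus strand. The canonical transcript of each has 7 exons, with a length of 2780 bases for *TGFB1*, 5868 bases for *TGFB2* and 3431 bases for *TGFB3*. *INHBA* spans chr7:41706766-41745432 on the minus strand. The receptors *TGFBR1* and *TGFBR2* lie at chr9:101866320-101916474 and chr3:30648093-30735634, both on the plus strand. *SMAD3* lies at chr15:67356101-67487511 (plus), *SMAD7* at chr18:46446223-46477335 (minus), *SKIL* at chr3:170075130-170114623 (plus) and *TGFBI* at chr5:135364677-135399507 (plus). The exons of *TGFB2* overlap the antisense gene *TGFB2-AS1* over 701 bases and *TGFB2-OT1* on the same strand over 1371 bases, and *TGFB3* overlaps *TGFB3-AS1* over 163 bases. The files hold no row for these overlapping genes and the strand setting of the counting was not given in the sources used here, so their reads could not be separated from those of *TGFB2* and *TGFB3*.

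The promoter windows of the 10 genes were searched for short elements of factors that act with this pathway. The windows were the RefSeq promoters of GRCh38.p14, 250 bases before to 50 bases after each annotated start, of which the 10 genes have 25. The SMAD box CAGACA, searched on both strands, was found in 5 of these 25 windows, which belong to 4 genes, and in 16.9% of all 35116 windows. The AP-1 element TGANTCA was found in 2 of the 25 windows, of 2 genes, and in 7.71% of all windows, and the cyclic AMP response element TGACGTCA in 1 of the 25 windows and in 1.85%. The palindromic SMAD element GTCTAGAC was in no window of the 10 genes and in 0.202% of all windows. The stretches printed here belong to 4 genes, *TGFB2*, *SMAD3*, *TGFBR2* and *SKIL*, which were lower in RIS+shHMGA1 than in growing cells. Matches not printed are the SMAD boxes of *INHBA*, which was higher there, and of *TGFBR1*, which did not pass the thresholds. *TGFBI*, also lower, had none of these elements. Capitals mark the matched letters, and positions count back from the annotated start of the window's transcript to the first matched base.
*TGFB2*, SMAD box at -53, chr1:218345271-218345300, plus strand: ctttgttgaaggCAGACAcgtggttcagag
*SMAD3*, SMAD box on the other strand at -134, chr15:67137875-67137904, plus strand: ttggatttcttcTGTCTGggtgttgccagg
*SMAD3*, AP-1 element at -56, chr15:67125675-67125704, plus strand: actgactcctcTGAGTCAtgcccaggggag
*TGFBR2*, AP-1 element at -6, chr3:30606584-30606613, plus strand: ttgaagttgagTGAGTCActcgcgcgcacg
*SKIL*, cyclic AMP response element at -54, chr3:170357650-170357679, plus strand: cgaggactcggTGACGTCAgagggctgtgt
The 2 *SMAD3* stretches precede different annotated starts of the gene. A match describes the letters in these windows and is not evidence of binding.

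Total counts per library ranged from 8698070 to 23103424, with a median of 10604084. *HMGA1*, the target of the hairpin, lay between 639 and 861 CPM (read counts scaled to normalised library size) in the 12 vector libraries and between 54.4 and 262 CPM in the 12 hairpin libraries, so no label was contradicted by it. Defining markers of epithelial, endothelial and leukocyte cells each summed to at most 2.01 CPM in any library, while all 8 fibroblast markers were expressed in every group. Fibroblast markers, which include collagens, summed to between 22652 and 40175 CPM in growing libraries other than replicate 4, between 14062 and 20037 CPM in shHMGA1 and between 4435 and 5815 CPM in RIS+shHMGA1. They thus moved with 4OHT and with the hairpin, as did genes below, and their part in the results was not tested. The libraries labelled growing replicate 4 and RIS replicate 2 stood apart from their groups. The 8 proliferation markers summed to 111 CPM in growing replicate 4, against 534 to 890 CPM in the other growing libraries, and to 701 CPM in RIS replicate 2, against 73.0 to 111 CPM in the other RIS libraries. Across all tested genes, growing replicate 4 was nearer to the RIS+shHMGA1 mean than to the mean of the other growing libraries (root-mean-square distance 0.33 against 1.32 on the log2 scale), and RIS replicate 2 was nearer to the growing mean than to that of the other RIS libraries (0.29 against 1.08). Both kept their labels here, and results that rest on them are given with and without them. They were singled out by their expression, so values of p without them describe the remaining libraries and are no independent test. The contrast of RIS+shHMGA1 with shHMGA1 contains neither. Its fit estimated the spread over all 24 libraries, however, so both enter its SE and adjusted p. For *TGFB2* in that contrast the SE was 0.48 with all libraries and 0.25 without both.

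Levels of different genes were compared per kilobase of canonical transcript. In shHMGA1 cells the highest was *TGFBI*, at a median of 1186 CPM per kilobase, followed by *TGFBR2* at 73.3, *INHBA* at 48.5 and *TGFB1* at 40.2 CPM per kilobase. *INHBA* and *TGFB1* overlapped in range, whereas *TGFBR2* lay above both in all libraries. *SMAD3* followed at 16.5, *TGFB2* at 10.9, *SMAD7* at 9.02, *TGFBR1* at 6.30 and *SKIL* at 4.60 CPM per kilobase, and the ranges of each pair of neighbours in this order overlapped. *TGFB3* was lowest, at 0.246 CPM per kilobase. In RIS+shHMGA1 cells *INHBA*, at a median of 127 CPM per kilobase, lay above *TGFBR2*, at 43.3, with no overlap between their ranges, and *TGFB2*, at 1.90 CPM per kilobase, lay below *SKIL*, at 2.91, with overlapping ranges.

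**Figure D1:**
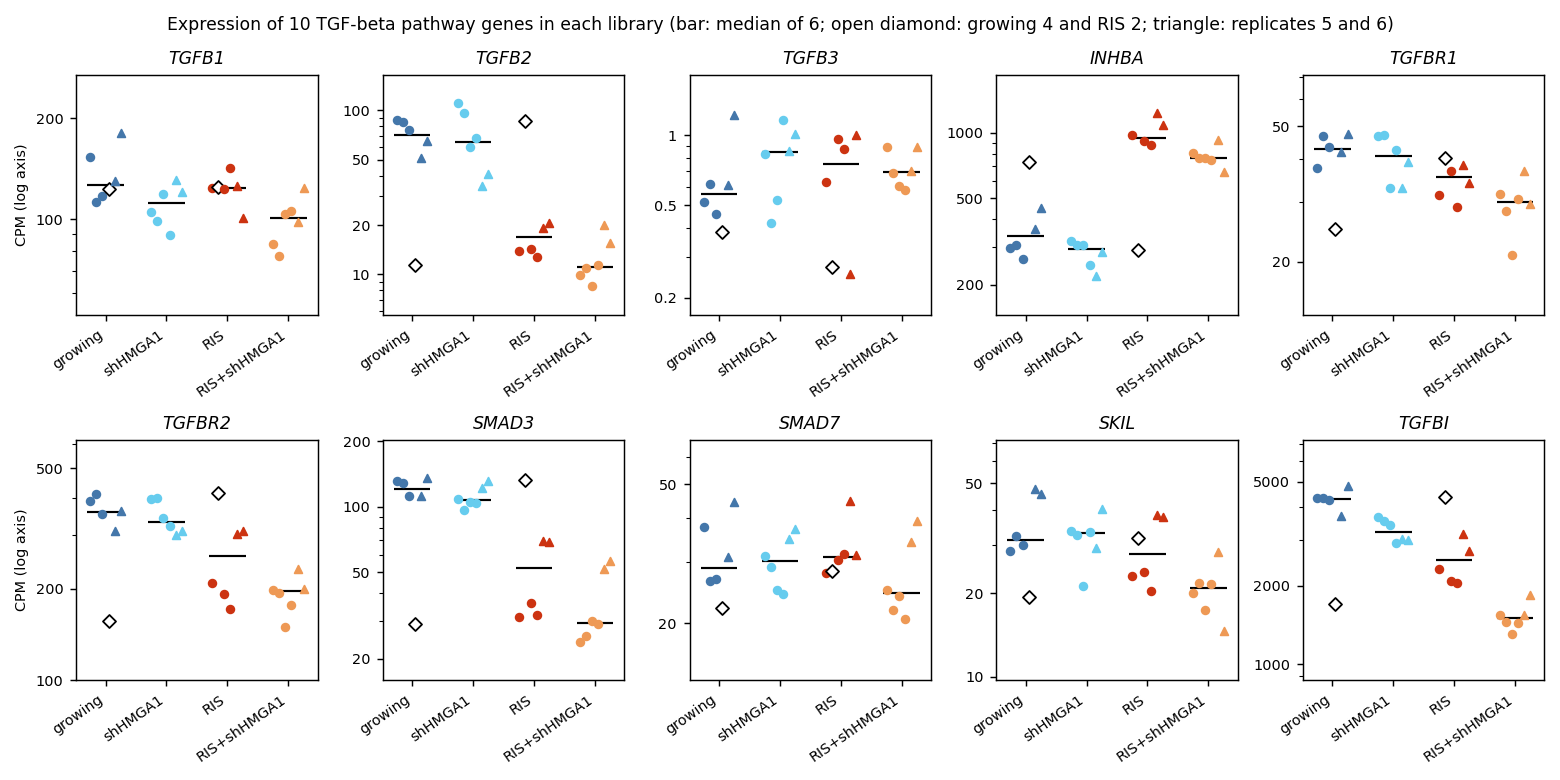
CPM (log axis) of the 10 genes in each of the 24 libraries, by group. Each point is a library, bars are medians of 6, open diamonds are growing replicate 4 and RIS replicate 2, and triangles are replicates 5 and 6. TGFB2, SMAD3 and TGFBI lay lower and INHBA higher in all RIS+shHMGA1 libraries than in all shHMGA1 libraries, and both diamonds lay with the opposite 4OHT state for these genes.

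Among the ligands, *TGFB2* and *INHBA* moved in opposite directions with RAS. *TGFB2*, an isoform of the ligand, measured 110, 95.7, 59.4, 68.2, 34.6 and 41.1 CPM in shHMGA1 replicates 1 to 6 and 9.90, 10.9, 8.51, 11.4, 20.1 and 15.6 CPM in RIS+shHMGA1 replicates 1 to 6. All 6 treated libraries lay below all 6 untreated ones, and replicates 5 and 6 were the lowest untreated and the highest treated libraries. *TGFB2* was 5.34-fold lower in RIS+shHMGA1 than in shHMGA1 (log2 fold change -2.42, SE 0.48, adjusted p = 0.000462).

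In the vector cells *TGFB2* measured 87.6, 84.5, 75.9, 11.4, 51.3 and 65.0 CPM in growing replicates 1 to 6, and 13.8, 85.7, 14.4, 12.8, 19.3 and 20.4 CPM in RIS replicates 1 to 6. The groups overlapped only through growing replicate 4, the lowest growing library, and RIS replicate 2, the highest RIS library. With all libraries the RIS difference did not pass the thresholds (log2 fold change -1.18, SE 0.46, adjusted p = 0.0793). Without these 2 libraries *TGFB2* was 4.51-fold lower in RIS (log2 fold change -2.17, SE 0.27, adjusted p = 2.75e-07).

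*INHBA* encodes the beta A subunit of activin A and of inhibin A. It measured between 219 and 318 CPM in shHMGA1, with a median of 293, and between 662 and 929 CPM in RIS+shHMGA1, with a median of 765. The groups did not overlap, and *INHBA* was 2.80-fold higher in RIS+shHMGA1 (log2 fold change 1.48, SE 0.26, adjusted p = 0.000246), higher in 6 of 6 same-numbered pairs. In growing cells it measured 264 to 734 CPM, with a median of 334, and in RIS 290 to 1231 CPM, with a median of 945. Growing replicate 4 gave the 734 CPM and RIS replicate 2 the 290 CPM, and the other 5 growing libraries reached 453 CPM while the other 5 RIS libraries started at 880 CPM. With all libraries *INHBA* missed the adjusted p threshold in RIS (log2 fold change 1.16, SE 0.26, adjusted p = 0.0150), and without both libraries it was 3.03-fold higher (log2 fold change 1.60, SE 0.14, adjusted p = 1.31e-09).

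*TGFB1*, the most abundant of the TGF-beta isoforms per length here, measured 112 to 180 CPM in growing cells, 89.5 to 131 CPM in shHMGA1, 101 to 142 CPM in RIS and 77.6 to 124 CPM in RIS+shHMGA1. All groups overlapped. Its log2 fold change was -0.14 (SE 0.13, adjusted p = 0.459) in RIS against growing and -0.16 (SE 0.13, adjusted p = 0.284) in RIS+shHMGA1 against shHMGA1. *TGFB3* had 3 to 14 counts per library, between 0.25 and 1.22 CPM, and no difference in it was detectable at this depth.

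The share of each isoform was taken as its counts per base of canonical transcript, divided by the sum over *TGFB1*, *TGFB2* and *TGFB3*. The *TGFB2* share was 22.5% ± 9.19 (SD, n = 6) in shHMGA1 and 5.73% ± 1.72 (SD, n = 6) in RIS+shHMGA1. It ranged from 11.1% to 33.02% in the former and from 3.72% to 8.82% in the latter, without overlap. The difference was -16.7 percentage points (exact permutation test, two-sided, p = 0.00216, the smallest that 6 against 6 allows; 0.0130 after Benjamini-Hochberg adjustment over 12 share tests). When libraries were paired by replicate number the exact sign-flip test reached its own smallest p of 0.0313, or 0.125 after adjustment.

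In vector cells the *TGFB2* share was 17.6% ± 7.91 (SD, n = 6) in growing and 9.06% ± 7.77 (SD, n = 6) in RIS, a difference of -8.51 percentage points (exact permutation test, p = 0.0931, adjusted p = 0.255). Growing replicate 4 had a share of 4.22% and RIS replicate 2 of 24.6%. Without both the difference was -14.3 percentage points. The exact permutation test of 5 against 5 then gave the smallest p it allows (p = 0.00794, adjusted p = 0.0238). It cannot decide the question, because both libraries were left out after their expression was seen. *TGFB1* made up the remainder almost alone, since the *TGFB3* share did not exceed 0.803% in any library. Its share rose by 16.6 percentage points in RIS+shHMGA1 against shHMGA1 (exact permutation test, p = 0.00216, adjusted p = 0.0130), which is the mirror image of the *TGFB2* share and no separate result.

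**Figure D2:**
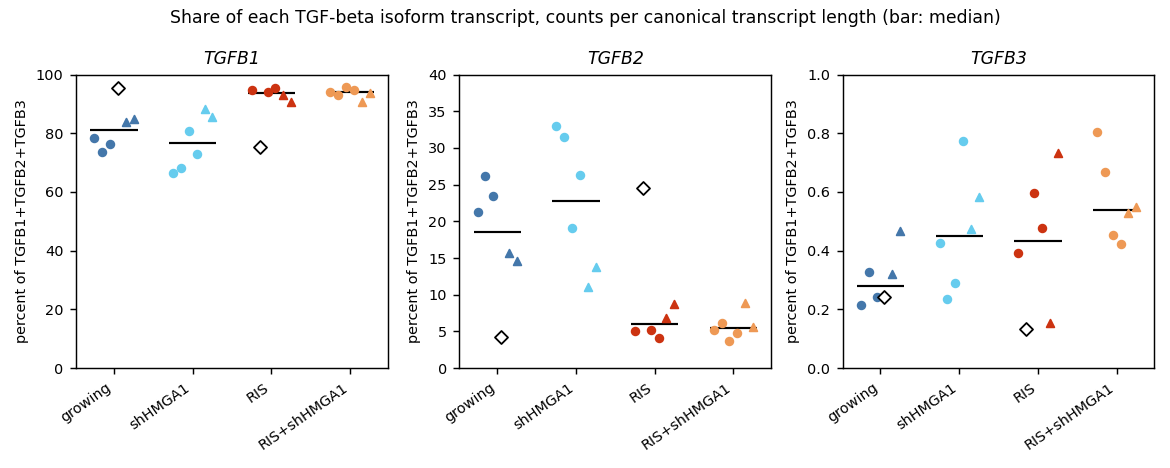
Share of TGFB1, TGFB2 and TGFB3 in the sum of the 3 isoforms (percent, counts per canonical transcript length, each panel with its own axis from 0), by group. Each point is a library, bars are medians, open diamonds are growing replicate 4 and RIS replicate 2, and triangles are replicates 5 and 6. The TGFB2 share lay between 3.72% and 8.82% in RIS+shHMGA1 and between 11.1% and 33.02% in shHMGA1.

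Of the receptors, the type II receptor passed the thresholds in RIS+shHMGA1 against shHMGA1 and the type I receptor did not. The difference between the 2 receptors was not tested. *TGFBR2*, which binds the ligand first, measured 302 to 397 CPM in shHMGA1, with a median of 332, and 150 to 232 CPM in RIS+shHMGA1, with a median of 196. The groups did not overlap, and *TGFBR2* was 1.80-fold lower in RIS+shHMGA1 (log2 fold change -0.85, SE 0.21, adjusted p = 0.00184). In growing cells it measured 157 to 411 CPM, with a median of 358, and in RIS 172 to 413 CPM, with a median of 257. The lowest growing value was replicate 4 and the highest RIS value was replicate 2, and without them the groups met at 311 CPM in growing and 309 CPM in RIS without overlapping. Its log2 fold change in RIS was -0.31 (SE 0.21, adjusted p = 0.298) with all libraries and -0.62 (SE 0.15, adjusted p = 0.000991) without both. *TGFBR1*, the kinase that phosphorylates SMAD2 and SMAD3, measured 32.8 to 47.1 CPM in shHMGA1 and 20.9 to 37.01 CPM in RIS+shHMGA1, with overlapping groups. Its log2 fold change was -0.44 (SE 0.15, adjusted p = 0.0136) there. Without growing replicate 4 and RIS replicate 2 it was -0.44 (SE 0.12, adjusted p = 0.0025) there and missed only the cut-off on fold change. In RIS against growing it was -0.20 (SE 0.15, adjusted p = 0.340), or -0.35 (SE 0.13, adjusted p = 0.0232) without both libraries.

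Among the SMADs and their regulators, *SMAD3* fell and *SMAD7* showed no detectable difference. *SMAD3*, which carries the signal from the receptor to DNA, measured 109, 96.5, 105, 104, 121 and 131 CPM in shHMGA1 replicates 1 to 6 and 23.98, 25.5, 29.8, 28.8, 51.6 and 56.5 CPM in RIS+shHMGA1 replicates 1 to 6. All treated libraries lay below all untreated ones, and replicates 5 and 6 were the highest in both groups. *SMAD3* was 3.08-fold lower in RIS+shHMGA1 (log2 fold change -1.62, SE 0.35, adjusted p = 0.000789).

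In vector cells *SMAD3* measured 131, 129, 112, 28.8, 112 and 135 CPM in growing replicates 1 to 6 and 31.0, 133, 36.2, 32.0, 69.3 and 68.9 CPM in RIS replicates 1 to 6. Growing replicate 4 had a RIS level and RIS replicate 2 a growing level, and RIS replicates 5 and 6 lay between the other RIS libraries and the growing cells. The log2 fold change in RIS was -0.81 (SE 0.34, adjusted p = 0.105) with all libraries and -1.38 (SE 0.23, adjusted p = 2.12e-05) without both.

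*SMAD7*, the inhibitory SMAD that competes for the receptor, measured 22.1 to 44.6 CPM in growing, 24.2 to 37.2 CPM in shHMGA1, 27.8 to 44.8 CPM in RIS and 20.6 to 39.2 CPM in RIS+shHMGA1. All groups overlapped, and its log2 fold change was 0.04 (SE 0.18, adjusted p = 0.886) in RIS against growing and -0.14 (SE 0.18, adjusted p = 0.510) in RIS+shHMGA1 against shHMGA1. *SKIL* encodes SnoN, a nuclear repressor of SMAD-driven transcription. It measured 21.2 to 40.4 CPM in shHMGA1 and 14.6 to 28.2 CPM in RIS+shHMGA1, lower in 6 of 6 same-numbered pairs but with overlapping groups. Its log2 fold change there was -0.62 (SE 0.21, adjusted p = 0.0140) and missed the adjusted p threshold, which it passed with the replicate number as a block (adjusted p = 0.00534) or without growing replicate 4 and RIS replicate 2 (adjusted p = 0.00501). In RIS against growing it was -0.22 (SE 0.21, adjusted p = 0.475).

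*TGFBI*, a secreted matrix protein gene named for its induction by TGF-beta, was by far the most abundant of the 10. It measured 2905 to 3651 CPM in shHMGA1, with a median of 3216, and 1306 to 1839 CPM in RIS+shHMGA1, with a median of 1500.2. The groups did not overlap, and *TGFBI* was 2.14-fold lower in RIS+shHMGA1 (log2 fold change -1.10, SE 0.21, adjusted p = 0.00033). In growing cells it measured 1705 to 4823 CPM, with a median of 4297, and in RIS 2056 to 4353 CPM, with a median of 2513. Without growing replicate 4, at 1705 CPM, and RIS replicate 2, at 4353 CPM, all growing libraries were at or above 3711 CPM and all RIS libraries at or below 3154 CPM. The log2 fold change in RIS was -0.47 (SE 0.20, adjusted p = 0.109) with all libraries and -0.80 (SE 0.13, adjusted p = 1.23e-05) without both.

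Counted together, 5 of the 9 tested genes passed the thresholds (adjusted p under 0.01 and absolute log2 fold change over 0.58) in RIS+shHMGA1 against shHMGA1, where 39.1% of all 13356 tested genes passed. *INHBA* was higher, as were 19.6% of all tested genes, and *TGFB2*, *TGFBR2*, *SMAD3* and *TGFBI* were lower, as were 19.5%, and these 5 were also the ones whose groups did not overlap, which held for 43.4% of all tested genes. The median log2 fold change of the 9 genes was -0.62, against -0.02 over all tested genes. The members were chosen with earlier results of these data known, so these medians are a description and no test. In RIS against growing 0 of the 9 passed, as did 0.0% of all tested genes (edgeR quasi-likelihood, 4407 genes at an unadjusted p under 0.05), and DESeq2 passed 1 of the 9, *INHBA*, beside 6.21% of all genes. Without growing replicate 4 and RIS replicate 2, 5 of the 10 then tested passed in RIS against growing, beside 39.7% of all genes. These were again *INHBA*, higher, as were 19.2% of all genes, and *TGFB2*, *TGFBR2*, *SMAD3* and *TGFBI*, lower, as were 20.5%. With all libraries RIS and growing overlapped for every member, an absence of overlap being seen for 0.367% of all genes, and without both these 5 did not overlap, as for 35.2% of all genes. The count of members that passed was of the order of the background in both contrasts and is no result about them.

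**Figure D3:**
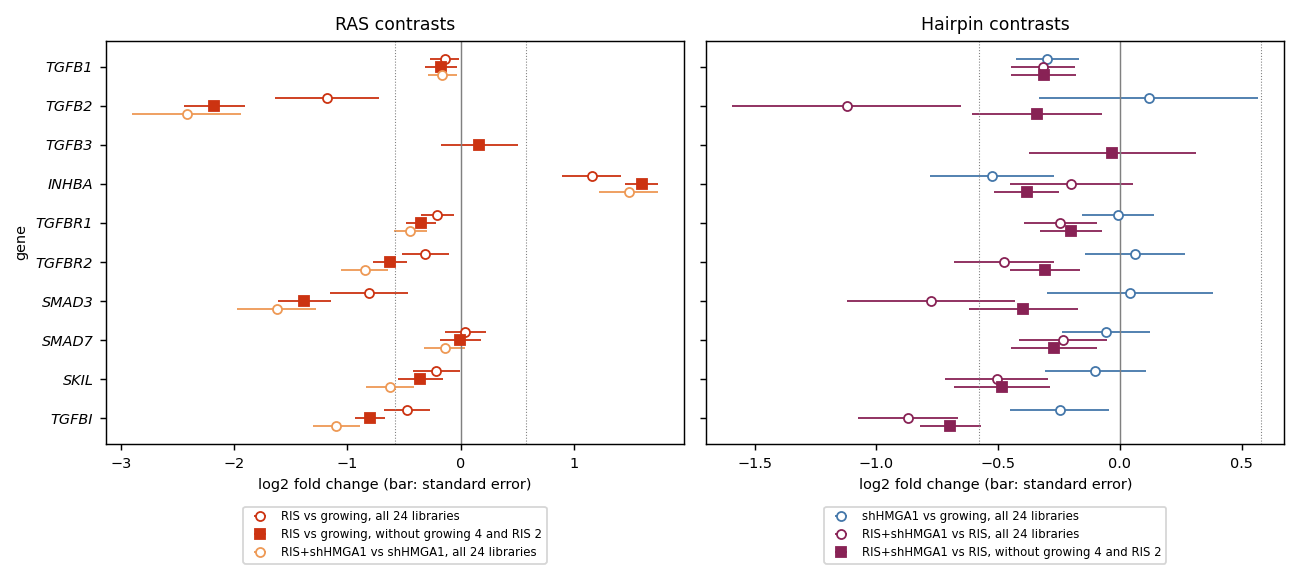
Log2 fold changes of the 10 genes with standard errors, for the 2 contrasts of RAS (left) and the 2 contrasts of the hairpin (right). Circles are fits with all 24 libraries, squares are fits without growing replicate 4 and RIS replicate 2, and dotted lines mark an absolute log2 fold change of 0.58. TGFB2 lay at -2.42 in RIS+shHMGA1 against shHMGA1 and INHBA at 1.48, and TGFB3 has only squares because it was not tested with all libraries.

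The hairpin contrasts asked whether lowering *HMGA1*, a chromatin architectural protein gene, moved these transcripts. In shHMGA1 against growing, where 0.27% of all tested genes passed, 0 of the 9 genes did (edgeR quasi-likelihood), and the unadjusted p was under 0.05 for 2 of them, *TGFB1* and *INHBA*. DESeq2 also passed 0 members, beside 0.741% of all genes, and without growing replicate 4 and RIS replicate 2 the count stayed at 0, beside 2.59% of all genes. *INHBA* had a log2 fold change of -0.53 (SE 0.25, adjusted p = 0.379), or -0.27 (SE 0.13, adjusted p = 0.141) without growing replicate 4 and RIS replicate 2, and *TGFB1* one of -0.30 (SE 0.13, adjusted p = 0.328), or -0.33 (SE 0.13, adjusted p = 0.0779) without them. *TGFBI* was lower in every shHMGA1 library than in every growing library other than replicate 4, an absence of overlap seen for 6.87% of all genes, with a log2 fold change of -0.25 (SE 0.20, adjusted p = 0.650) with all libraries and -0.40 (SE 0.12, adjusted p = 0.0304) without both.

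In RIS+shHMGA1 against RIS, where 2.55% of all tested genes passed, *TGFBI* alone of the 9 passed. It was 1.83-fold lower (log2 fold change -0.87, SE 0.21, adjusted p = 0.00986), lower in 6 of 6 same-numbered pairs and without overlap between the groups, as was the case for 13.2% of all tested genes. Its adjusted p was just under 0.01 and rose above it in 10 of the 12 fits that each left out 1 library of the contrast, with log2 fold changes between -0.94 and -0.70. Without growing replicate 4 and RIS replicate 2 it was -0.70 (SE 0.12, adjusted p = 0.000837), beside 12.5% of all genes that then passed. The other 8 tested genes had log2 fold changes between -1.12 and -0.20, none of which passed. That of *TGFB2*, -1.12 (SE 0.47, adjusted p = 0.0619), became -0.34 (SE 0.27, adjusted p = 0.312) without both libraries, and that of *SMAD3* went from -0.78 (SE 0.35, adjusted p = 0.0764) to -0.40 (SE 0.22, adjusted p = 0.159).

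Against growing cells, where 45.9% of all tested genes passed, 6 of the 9 genes passed in RIS+shHMGA1. *INHBA* was higher, as were 22.0% of all genes (log2 fold change 0.96, SE 0.26, adjusted p = 0.0027), and *TGFB2* (-2.30, SE 0.48, adjusted p = 0.00052), *TGFBR2* (-0.79, SE 0.21, adjusted p = 0.00246), *SMAD3* (-1.58, SE 0.35, adjusted p = 0.000775), *SKIL* (-0.72, SE 0.21, adjusted p = 0.00474) and *TGFBI* (-1.34, SE 0.21, adjusted p = 0.000121) were lower, as were 23.9% of all genes. *TGFB1* met the cut-off on adjusted p but not that on fold change (-0.46, SE 0.13, adjusted p = 0.00432), and without growing replicate 4 and RIS replicate 2 likewise (-0.49, SE 0.13, adjusted p = 0.00217). The *SKIL* call was lost with only the libraries of the contrast (adjusted p = 0.0115) and in 4 of the 12 fits that each left out 1 library, those without growing replicates 5 or 6 or RIS+shHMGA1 replicates 3 or 6. Without growing replicate 4 and RIS replicate 2 these 6 passed, beside 56.9% of all genes, with log2 fold changes of 1.22 for *INHBA*, -2.52 for *TGFB2*, -0.93 for *TGFBR2*, -1.78 for *SMAD3*, -0.84 for *SKIL* and -1.50 for *TGFBI*. This contrast changes RAS and the hairpin together and shares its samples with the contrasts above. Whether the response to RAS differed with the hairpin was tested by the interaction term, which 0 of the 9 genes and 0.0% of all genes passed (edgeR quasi-likelihood, 1371 genes at an unadjusted p under 0.05, *TGFBI* among them), and DESeq2 passed 0 of the 9 and 0.0374% of all genes. The interaction was -1.24 (SE 0.65, adjusted p = 0.426) for *TGFB2* and -0.62 (SE 0.29, adjusted p = 0.426) for *TGFBI*, on the log2 scale. Without growing replicate 4 and RIS replicate 2 these became -0.24 (SE 0.36, adjusted p = 0.993) and -0.29 (SE 0.18, adjusted p = 0.993), beside 0.00745% of all genes that then passed, so the response was not shown to differ between vector and hairpin cells.

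**Figure D4:**
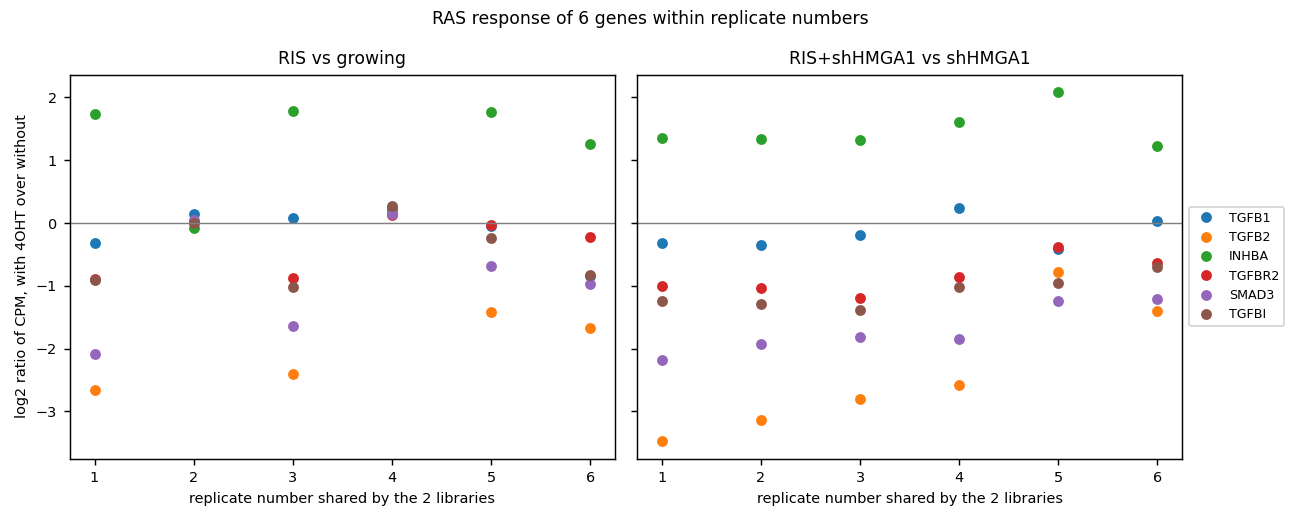
Log2 ratio of CPM with 4OHT over CPM without, for 6 genes in libraries that share a replicate number, in vector cells (left) and hairpin cells (right). Each point is 1 gene in 1 pair, and the grey line is no change. In vector cells numbers 2 and 4, which hold RIS replicate 2 and growing replicate 4, lay near 0 for all 6 genes, and in hairpin cells TGFB2 lay between -3.47 and -2.58 in numbers 1 to 4 and between -1.40 and -0.79 in numbers 5 and 6.

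Within replicate numbers the response differed between numbers 1 to 4 and numbers 5 and 6, which the labels do not describe further. In hairpin cells the *TGFB2* log2 ratio of treated to untreated averaged -3.00 in numbers 1 to 4 and -1.09 in numbers 5 and 6, and that of *SMAD3* -1.94 and -1.23. *TGFBR2* averaged -1.02 and -0.51, and *TGFBI* -1.23 and -0.83. *INHBA* averaged 1.40 and 1.66, and its mean alone of these 5 genes was not smaller in size in numbers 5 and 6. Its pairs ran from 1.33 to 1.60 in numbers 1 to 4 and from 1.23 to 2.09 in numbers 5 and 6. The lower pair of numbers 5 and 6 thus lay below all pairs of numbers 1 to 4. *HMGA1* itself was lower in hairpin replicates 5 and 6, at 58.1 and 54.4 CPM in shHMGA1 and 60.0 and 75.1 CPM in RIS+shHMGA1, than in replicates 1 to 4, at 98.7 to 143 and 197 to 262 CPM, and its part in these values was not tested. Among the RIS libraries other than replicate 2, replicates 5 and 6 had the higher *TGFB2*, *INHBA*, *TGFBR2*, *SMAD3*, *SKIL* and *TGFBI* values. This did not hold for *TGFB1*, *TGFB3*, *TGFBR1* and *SMAD7*. Of the former genes, *INHBA* alone had a positive log2 fold change in RIS against growing. Numbers 5 and 6 hold neither outlying library, and in a fit of these 8 libraries alone *TGFB2* (log2 fold change -1.56, SE 0.21, adjusted p = 0.00013), *INHBA* (1.49, SE 0.23, adjusted p = 0.000391) and *SMAD3* (-0.85, SE 0.18, adjusted p = 0.00337) passed in RIS against growing, beside 16.2% of all genes. In RIS+shHMGA1 against shHMGA1 the same 8 libraries left 3 members past the thresholds, beside 21.3% of all genes, and *TGFBR2* (-0.43, SE 0.18, adjusted p = 0.0818) and *TGFBI* (-0.75, SE 0.21, adjusted p = 0.0146) no longer passed.

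Other genes of the pathway were taken from lists by role, 73 genes in all, of which 64 passed the filter on low counts. The lists were chosen with earlier results of these data known, so their counts beside all genes are a description and no test of the pathway. In RIS+shHMGA1 against shHMGA1 43 of the 64 passed the thresholds, 9 higher and 34 lower, beside 39.1% of all genes, and their median log2 fold change was -0.70. In RIS against growing 0 of the 64 passed with all libraries and 43 without growing replicate 4 and RIS replicate 2, 11 higher and 32 lower, beside 39.7% of all genes (19.2% higher and 20.5% lower), with a median log2 fold change of -0.57. The shares for RIS+shHMGA1 against shHMGA1, 19.6% of all genes higher and 19.5% lower, stand behind each count by role given next for that contrast.

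Among other ligands and antagonists, 3 of 4 tested genes fell in RIS+shHMGA1 against shHMGA1 and 0 rose. All 3 were follistatin-type genes. *FST*, whose product follistatin binds and neutralises activins, measured 48.8 to 57.4 CPM in shHMGA1 and 4.19 to 7.64 CPM in RIS+shHMGA1 (log2 fold change -3.26, SE 0.58, adjusted p = 0.000265), without overlap. *FSTL3*, which encodes another activin-binding protein, measured 87.6 to 133 CPM and 23.6 to 38.4 CPM (log2 fold change -1.69, SE 0.29, adjusted p = 0.00024). *INHBA* thus rose and these antagonist transcripts fell in the same contrast. In vector cells *FST* measured 38.3 to 62.1 CPM in growing cells other than replicate 4, which had 2.70 CPM, and 3.05 to 6.76 CPM in RIS other than replicate 2, which had 35.3 CPM.

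In the list of the latent complex and its activation, 9 of 10 tested genes passed in RIS+shHMGA1 against shHMGA1, 2 higher and 7 lower. *LTBP4*, a latent TGF-beta binding protein gene, fell (log2 fold change -1.90, SE 0.30, adjusted p = 0.000199), as did *THBS1*, for the activator thrombospondin 1 (-1.66). *ITGB8*, for a subunit of an integrin that activates latent TGF-beta, rose (2.38, SE 0.63, adjusted p = 0.00314), from 0.07 to 0.36 CPM in shHMGA1 to 0.60 to 1.65 CPM in RIS+shHMGA1, so that it rests on few counts. *LTBP2* was not past the thresholds in that contrast but was lower in shHMGA1 than in growing (-1.08, SE 0.18, adjusted p = 0.00354) and lower in RIS+shHMGA1 than in RIS (-0.80, SE 0.18, adjusted p = 0.00899). Without growing replicate 4 and RIS replicate 2 these were -1.19 and -0.77, and both passed.

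Of the other receptors and co-receptors, 4 of 8 tested genes passed in RIS+shHMGA1 against shHMGA1. The co-receptor gene *TGFBR3*, whose product presents TGF-beta2 to *TGFBR2*, fell (log2 fold change -0.88, SE 0.22, adjusted p = 0.00248), and the pseudoreceptor gene *BAMBI* rose (0.87, SE 0.19, adjusted p = 0.000922). *ENG*, another co-receptor gene, was lower in RIS+shHMGA1 than in RIS (-0.83, SE 0.19, adjusted p = 0.00975). Its adjusted p was just under the threshold, and without both libraries *ENG* was -0.65 and passed. Of 15 other SMADs and regulators 6 passed, 3 higher and 3 lower. The highest were *TGIF1*, for a SMAD corepressor (1.69, SE 0.30, adjusted p = 0.000272), and *FKBP1A*, for a protein that binds the type I receptor (1.62, SE 0.26, adjusted p = 0.000209). Of the other SMADs that carry the signal, *SMAD2* (0.27, SE 0.09, adjusted p = 0.0142) and *SMAD4* (-0.39, SE 0.08, adjusted p = 0.000842) did not pass both thresholds, and their difference from *SMAD3* was not tested.

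Of 27 tested target genes 21 passed in RIS+shHMGA1 against shHMGA1, 18 lower and 3 higher. *ELN*, for elastin, and *COL3A1*, a fibrillar collagen gene, fell most (log2 fold changes -4.68, SE 0.93, adjusted p = 0.000444, and -4.44, SE 0.91, adjusted p = 0.00054). *ELN* measured 7.83 to 12.5 CPM in shHMGA1 and 0.09 to 1.19 CPM in RIS+shHMGA1, so that the size of its change rests on few counts. The 3 that rose were *IL11*, *SPHK1* and *BHLHE40*. In RIS+shHMGA1 against RIS 3 of the 27 fell, where 2.55% of all genes passed. Among them were *COL1A1* (-2.67, SE 0.63, adjusted p = 0.00972) and *VCAN* (-2.69, SE 0.61, adjusted p = 0.00899). These adjusted p, like those of *ENG* and *LTBP2* in this contrast, lay just under 0.01. All role lists together had 5 genes past the thresholds in this contrast, and 1 to 6 when 1 library was left out. Without growing replicate 4 and RIS replicate 2, 10 of the 27 fell, where 12.5% of all genes passed, with *COL1A1* at -1.66 and *VCAN* at -1.62. *BGN*, for the matrix proteoglycan biglycan, was lower in shHMGA1 than in growing (-1.98, SE 0.22, adjusted p = 1.92e-05), and without both libraries it was -2.06 and passed.

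**Figure D5:**
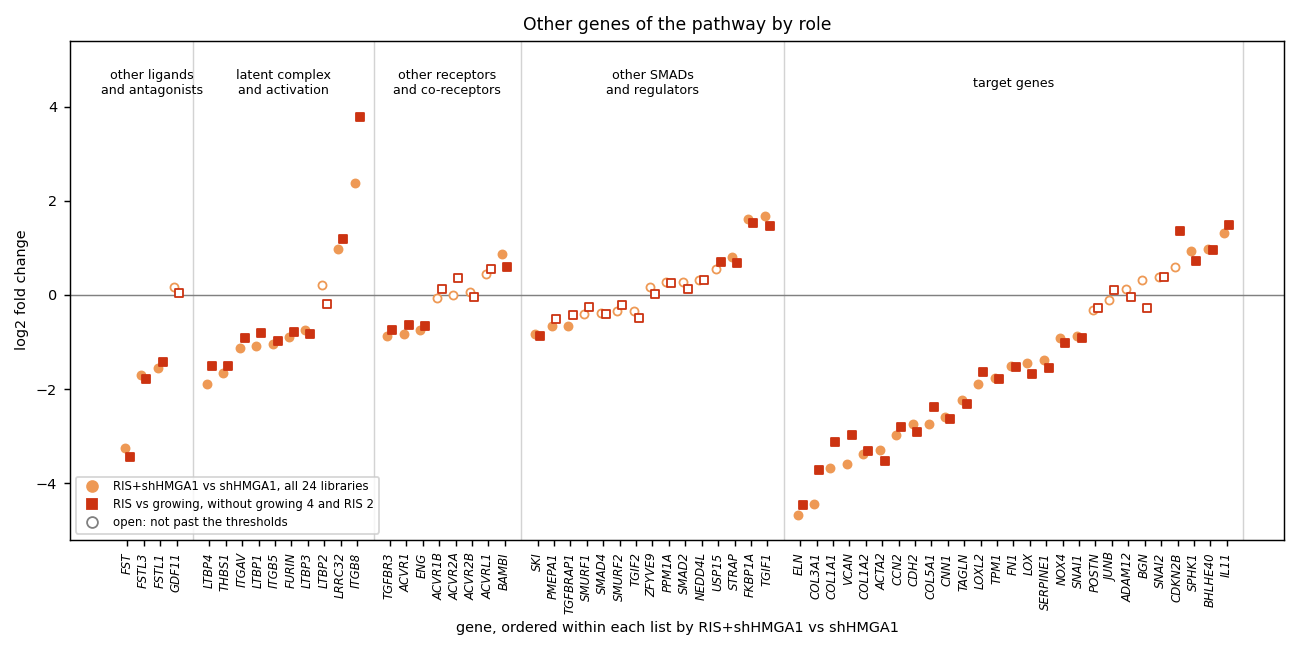
Log2 fold changes of the 64 tested genes of the other pathway lists, grouped by role. Orange circles are RIS+shHMGA1 against shHMGA1 with all 24 libraries, red squares are RIS against growing without growing replicate 4 and RIS replicate 2, and filled symbols passed the thresholds. FST, ELN and COL3A1 lay below 0 in both contrasts, and TGIF1, FKBP1A, ITGB8 and LRRC32 above 0.

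Genes whose log2 CPM ran most nearly parallel to the ligands over the 24 libraries were ranked by Pearson's r, as a description. The libraries fall into treated and untreated clusters, and the points share library and group, so r reflects this split and no p is given. For *TGFB2* these were *ANTXR1*, *HP1BP3* and *NTN4*, each with r = 0.98, and for *INHBA* they were *AMPD3*, *NFKBIZ* and *SERPINA9*, each with r = 0.98. For *TGFB1* they were *NOC4L* (0.90), *MICAL1* (0.86) and *TIGD5* (0.85).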

How the data were processed

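The authors mapped reads from TruSeq stranded mRNA libraries to hg19 with STAR 2.5.0b, removed low-quality and adapter reads with Cutadapt 1.10.0 and counted reads per gene with Rsubread. Each of the 24 deposited files holds raw, whole-number counts for 25702 Entrez identifiers. Annotation and strand setting of the counting were not given in the sources used here. Symbols were assigned to 23696 identifiers from RefSeq. Total counts per library ranged from 8698070 to 23103424, and the spread between replicates, more than counting error, sets the precision of all tested members.

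Counts were tested with edgeR 4.0.16 (limma 3.58.1, R 4.3.3). Low counts were filtered by group (filterByExpr), which left 13356 genes; TMM factors scaled the library sizes, and 4 group means were fitted by quasi-likelihood over all 24 libraries. Genes passed where the Benjamini-Hochberg adjusted p was under 0.01 and the log2 fold change exceeded 0.58 in size, the cut-offs of the study's methods. The SE of a log2 fold change was its size divided by the square root of its F. CPM use TMM library sizes, and log2 CPM for likeness use a prior count of 2. Isoform shares were compared by exact permutation tests (SciPy 1.17.1). Alternatives were DESeq2 1.42.0, RLE normalisation, no filter on low counts, the replicate number as a block, only the libraries of a contrast, and leaving out each library; fits without growing replicate 4 and RIS replicate 2 and within replicate numbers were added after seeing the data. Scripts were tested on simulated data. No libraries were duplicates within sampling noise.

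The 10 members and the lists were chosen with earlier results of these data known. Named besides the members and *HMGA1* are, for each role list and contrast, the 2 genes with the largest change among those past the thresholds, and the 3 genes most like each tested ligand; other genes named (*THBS1*, *SMAD2*, *SMAD4*, *LRRC32*, *IL11*, *SPHK1* and *BHLHE40*) were singled out after their values were seen. Nothing in the labels says what replicate numbers share between groups. Biological replicates are as labelled. The p-values of the fits set differences between groups against the spread between replicates, which the main fits estimated over all 24 libraries.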

Additional observations from a re-analysis of the deposited data

Results flagged for a closer look

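Libraries that lay far from the other 5 of their group were looked for by Dixon's ratio, the gap to the nearest library divided by the group's range, with a critical value of 0.625 for 6 libraries. Of 56 groups of values tested, 11 held such a library, and chance gives about 1 in 20, or 2.8 here. Growing replicate 4 and RIS replicate 2 accounted for 7 of the 11 between them, with 2 and 5.

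RIS replicate 2 was high for *TGFB2* (85.7 CPM, ratio 0.895) and *SMAD3* (133 CPM, ratio 0.625) and low for *INHBA* (290 CPM, ratio 0.626). Its isoform shares also lay apart, at 75.3% for *TGFB1* (ratio 0.757) and 24.6% for *TGFB2* (ratio 0.774). Growing replicate 4 was low for *SMAD3* (28.8 CPM, ratio 0.779) and *TGFBI* (1705 CPM, ratio 0.643). In each case the library had a level found in the opposite 4OHT state, while its *HMGA1* was at vector level.

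*TGFB3* was highest in growing replicate 6 (1.22 CPM, ratio 0.720), at no more than 14 counts, and *SMAD7* was highest in RIS replicate 5 (44.8 CPM, ratio 0.783). The total count was highest in growing replicate 1 (23103424, ratio 0.796) and, within RIS, in RIS replicate 3 (13195878, ratio 0.684).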

How the results depend on the processing

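In RIS+shHMGA1 against shHMGA1 the number of members past the thresholds was between 5 and 6 when each library was left out. Over all tested genes these fits gave 4349 to 5432. The same 5 members kept their direction in all alternatives run. In RIS against growing the number of members was 1 with DESeq2 (6.21% of all genes), 5 without growing replicate 4 and RIS replicate 2 (39.7%), 3 within numbers 5 and 6 (16.2%), and 5 within numbers 1 to 4 without these 2 libraries (47.8%). Leaving out 1 library gave 0 to 4 members and 0 to 32 other pathway genes, beside 0 to 3420 of all tested genes. These counts were above 0 only without growing replicate 4 (4 members and 32 pathway genes) or RIS replicate 2 (3 and 29). Other pathway genes numbered 15 with DESeq2, 43 without both libraries, 30 within numbers 5 and 6, and 46 within numbers 1 to 4 without both. Within numbers 1 to 4 with both libraries kept, RIS+shHMGA1 against shHMGA1 gave 0 members, 0 other pathway genes and 0.0% of all genes, with adjusted p between 0.0142 and 0.0168 for the 5 members. The same numbers without the 2 libraries gave 7 members (47.7% of all genes), and within numbers 5 and 6 it was 3 members (21.3%). Each fit estimated the spread over all its libraries, so the 2 libraries entered it wherever they were kept. Other sources of these differences were not tested.

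In RIS+shHMGA1 against RIS the count of members was 0 with RLE normalisation (2.44% of all genes), without the filter (0.926%) and with only the libraries of the contrast (2.58%). It was also 0 within numbers 1 to 4 (0.112%) and within numbers 5 and 6 (0.477%). When libraries were left out it was 0 to 1, beside 62 to 492 of all tested genes. Other pathway genes in that contrast numbered 19 with DESeq2 (11.8% of all genes), 1 without the filter (0.926%) and 15 without both libraries (12.5%). They numbered 1 within numbers 1 to 4 (0.112%) and 9 within them without both libraries (10.4%). When libraries were left out they numbered 1 to 6, beside 62 to 492 of all tested genes. In shHMGA1 against growing they numbered 1 with only the libraries of the contrast (0.0388% of all genes) and 7 without both libraries (2.59%). When libraries were left out they numbered 1 to 3, beside 10 to 67 of all tested genes.

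With the replicate number as a block, other pathway genes in RIS+shHMGA1 against RIS numbered 12 (12.3% of all genes), against 5 without it (2.55%). The isoform shares in RIS+shHMGA1 against shHMGA1 kept their differences (16.6 and -16.7 percentage points) with an adjusted p of 0.125. Libraries with the same number correlated with a mean r of 0.18, over 0.1 in 24 of 36 pairs. Libraries with different numbers had a mean r of -0.05, over 0.1 in 57 of 180 pairs, so same-numbered libraries were more alike on average. Between RIS and growing, r was 0.77 for number 2 and 0.83 for number 4, the pairs that hold RIS replicate 2 and growing replicate 4. It was -0.59 for number 1. How far the mean rests on the outlying libraries was not tested. In no contrast were all 6 pairs over 0.1, and the main fits did not take the numbers as pairs. What same-numbered libraries share was not tested. Without both outlying libraries the shares in RIS against growing were 14.1 and -14.3 percentage points.

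Changes of sign were seen for genes that did not pass the thresholds in the contrast named. They were *TGFBR1* in shHMGA1 against growing with the block (0.0037). Without both libraries they were *SMAD7* in RIS against growing (-0.0043), *TGFB2* (-0.10), *TGFBR2* (-0.083) and *SMAD3* (-0.16) in shHMGA1 against growing, and the interactions of *TGFB1* (0.012) and *INHBA* (-0.12). In RIS against growing they were *TGFB1* within numbers 1 to 4 (0.029, or 0.027 without both libraries), *SMAD7* (-0.020) and *HMGA1* (-0.0083) within them without both libraries, and *SMAD7* within numbers 5 and 6 (-0.0031). Within numbers 5 and 6 *SMAD7* was 0.099 in RIS+shHMGA1 against shHMGA1, and in RIS+shHMGA1 against RIS *TGFB1* was 0.030 and *SMAD7* 0.0097. Leaving out 1 library gave -0.075 to 0.17 for *SMAD7* and -0.0062 to 0.085 for *HMGA1* in RIS against growing. In shHMGA1 against growing it gave -0.098 to 0.25 for *TGFB2*, -0.11 to 0.046 for *TGFBR1*, -0.082 to 0.13 for *TGFBR2*, -0.16 to 0.11 for *SMAD3*, -0.14 to 0.069 for *SMAD7* and -0.22 to 0.020 for *SKIL*, and -0.12 to 0.041 for the interaction of *TGFB1*. Depth limits *TGFB3* alone among the members, with 197 counts in all libraries.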
